A study of Mus musculus with 4 samples.

Results

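MHC class II low macrophages outside the resident population of the mouse heart are described here. They were 4525 of 41542 cells kept from 4 libraries of droplet single-cell RNA sequencing. Their number was 1451 of 8645 cells in CLP plus stimulation, 1306 of 8331 in CLP, 601 of 8968 in sham and 1167 of 15598 in control. A member had at least 20 C1qa, C1qb and C1qc UMIs per 10,000, fewer than 20 Col1a2, Dcn and Col3a1 UMIs per 10,000 and no Cdh5 UMI. It had fewer than 2 of Timd4, Lyve1 and Folr2 detected, fewer than 20 H2-Aa, H2-Ab1 and H2-Eb1 UMIs per 10,000, and not both Mki67 and Top2a. Cells past the C1q, fibroblast gene and Cdh5 limits are called C1q positive below. The members were thus chosen by their own RNA, and the levels of these genes are given as a description only.

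The study set 4 groups of hearts side by side, with 1 library each. CLP plus stimulation is cecal ligation and puncture with low-level tragus stimulation, in which a weak current at the ear reaches fibres of the vagus nerve. CLP, a surgical model of sepsis in which gut contents leak into the abdomen, sham and a control labelled only as such make up the others. The treatment label of the stimulated library names the stimulation alone and its title adds the sepsis. The sources used here do not give strain, age, number of animals, time of sampling or stimulation settings. The series title is about stimulation and the M2 state of macrophages in septic hearts.

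Cardiac macrophages arise from cells seeded before birth, which carry Timd4, Lyve1 and Folr2 and renew themselves, and from blood monocytes. Many monocyte-derived cells carry MHC class II, the molecules that present peptides to T helper cells, and resting macrophages lower or raise it with their state. C1q starts the classical complement pathway and marks tissue macrophages, and Csf1r is the receptor of their main growth factor. The name M1 is used for macrophages in an inflammatory state, and M2 for those linked with healing.

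Since every group is a single library, differences lack a replicate check and none was tested. Parentheses hold 95% intervals, which reflect counting error alone. The libraries held 54611436 to 59465046 UMIs, and the members held 8383360 in CLP plus stimulation, 8813567 in CLP, 1987042 in sham and 2348558 in control. Members were shallower outside sepsis. Their median depth was 5659 UMIs in CLP plus stimulation, 5762.5 in CLP, 2035 in sham and 1202 in control, against 4809, 5520, 5465.5 and 3063 over all kept cells of the same libraries. The share of members under 1000 UMIs was 13.9% in CLP plus stimulation, 10.2% in CLP, 32.1% in sham and 42.4% in control. A shallow cell meets a limit of fewer than 2 genes detected more readily, and the share of members with 1 of Timd4, Lyve1 and Folr2 detected was 35.8%, 31.9%, 49.4% and 52.0% in the same order. Members of 2 libraries shared at most 2 barcodes. Counts led with below were therefore repeated on members of at least 2000 UMIs and without members high in S100a8 and S100a9, both chosen after seeing the data.

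The cells fitted the macrophage label by genes the rule did not use. Csf1r stood at 216 CPM in CLP plus stimulation, 183 in CLP, 783 in sham and 814 in control. After thinning every cell to 1000 UMIs, which left out 201, 133, 193 and 495 shallower members of CLP plus stimulation, CLP, sham and control, Csf1r was detected in 20.1%, 15.3%, 54.2% and 52.4% of members in that order, and in 0.907%, 0.614%, 1.39% and 1.18% of endothelial cells, which should lack it and had median depths of 5093, 4512.5, 4399 and 3082.5 UMIs. Without thinning it was 54.1, 53.7, 70.9 and 65.8% of members. Adgre1, which encodes the F4/80 antigen, was at 57.6 CPM in CLP plus stimulation, 187 in CLP, 369 in sham and 252 in control. Both septic libraries were thus low in Csf1r, and CLP plus stimulation was also low in Adgre1.

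Markers of other cells were present and differed between libraries. The summed neutrophil markers, 11 genes, were at 6018 CPM in CLP plus stimulation, 7994 in CLP, 1463 in sham and 579 in control, beside 9141, 12273, 18940.2 and 17133 CPM for the 10 macrophage markers. The macrophage sum was partly set by the rule, since C1qa, C1qb and C1qc are among its genes. S100a8, of the neutrophil list, was unevenly spread, and the 10 members richest in it held 52.5%, 58.7%, 85.7% and 83.1% of its counts. Without the 107, 45, 13 and 14 members that held at least 100 S100a8 and S100a9 UMIs per 10,000, the neutrophil sum was 806, 618, 166 and 86.8 CPM. Endothelial markers, 8 genes with Cdh5 at 0 by the rule, were at 219 CPM in CLP plus stimulation, 438 in CLP, 631 in sham and 1380.4 in control, and at 149, 349, 196 and 591 CPM in members of at least 2000 UMIs. Cardiomyocyte markers, 8 genes with none at 0, were at 109.9 CPM in CLP plus stimulation, 333 in CLP, 962 in sham and 1053 in control. Monocyte markers, 7 genes with none at 0, summed to 594 CPM in CLP plus stimulation, 737 in CLP, 64.9 in sham and 48.1 in control. Hp, also an acute phase gene, is on this list and held most of the sum in CLP but not in sham. Dendritic cell markers, 8 genes, summed to 23.1 CPM in CLP plus stimulation, 10.1 in CLP, 22.1 in sham and 37.0 in control. Of this list Flt3, Cd209a and Clec9a were at 0 in CLP, Cd209a and Clec9a in CLP plus stimulation, Clec9a in sham and Flt3 in control. The rest of the list was above 0 in each library. The part of these markers in the differences below was not tested.

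MHC class II low cells were the leading macrophage population in CLP. They made up 46.4% (44.6 to 48.2) of 3128 C1q positive cells in CLP plus stimulation and 75.7% (73.6 to 77.7) of 1726 in CLP. In sham they were 17.7% (16.4 to 19.0) of 3394 and in control 24.8% (23.6 to 26.0) of 4708. As a log2 ratio of these shares, CLP plus stimulation over CLP was -0.71 (-0.77 to -0.64), CLP over sham 2.10 (1.98 to 2.21) and sham over control -0.49 (-0.61 to -0.36). The value of sham over control was -0.0074 (-0.11 to 0.09) when the rule was applied to cells thinned to 1000 UMIs. In cells of at least 2000 UMIs it was -0.29 (-0.49 to -0.09). The difference between those libraries thus depended on how depth was handled. Of all kept cells the members were 16.8%, 15.7%, 6.70% and 7.48% in CLP plus stimulation, CLP, sham and control.

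**Figure D1:**
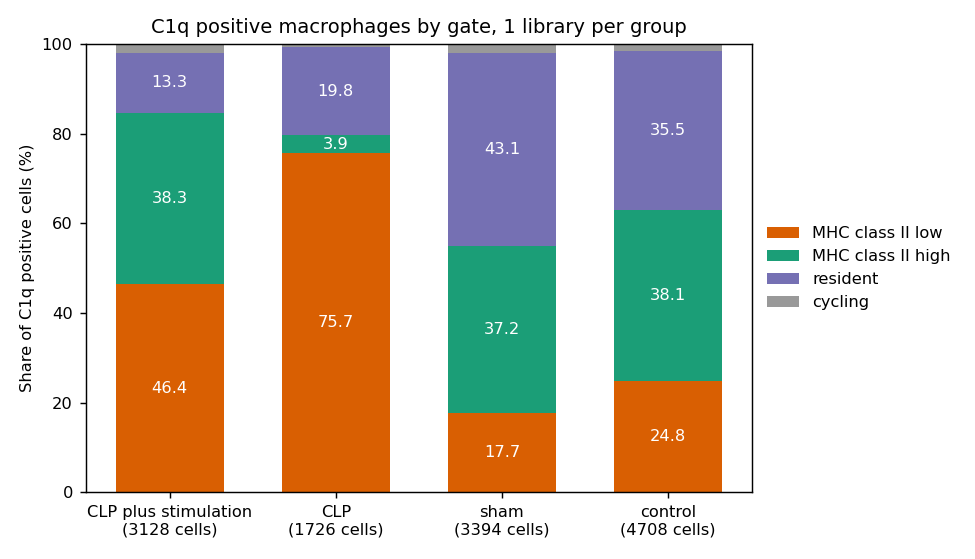
Stacked bars give the share of C1q positive cells (%, vertical axis) in each gate for the CLP plus stimulation, CLP, sham and control libraries. MHC class II low cells fill 75.7% of the CLP bar and 46.4% of the CLP plus stimulation bar, and MHC class II high cells 3.9% and 38.3%.

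The remaining macrophages were distributed differently. MHC class II high cells numbered 1199 in CLP plus stimulation, 68 in CLP, 1263 in sham and 1796 in control. Resident cells, with 2 or more of Timd4, Lyve1 and Folr2, numbered 417, 342, 1462 and 1670, and cycling cells 61, 10, 68 and 75. The CLP library was set apart by its few MHC class II high cells, and both septic libraries by their few residents. The class II limit did not cut every library at the same kind of place. No class II UMI was found in 30.7% of members of CLP plus stimulation, 66.3% of CLP, 51.6% of sham and 69.5% of control. Just inside the limit, at 10 to 20 per 10,000, lay 434, 57, 112 and 154 cells, and just outside, at 20 to 40 per 10,000, lay 574, 43, 103 and 154. The cells called high had a median of 41.4 and 32.2 class II UMIs per 10,000 in CLP plus stimulation and CLP, and of 202 and 177 in sham and control. No library had a gap in its values at the limit. With the limit at 10 per 10,000 the share ratio of CLP plus stimulation over CLP was -1.15 (-1.24 to -1.07).

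**Figure D2:**
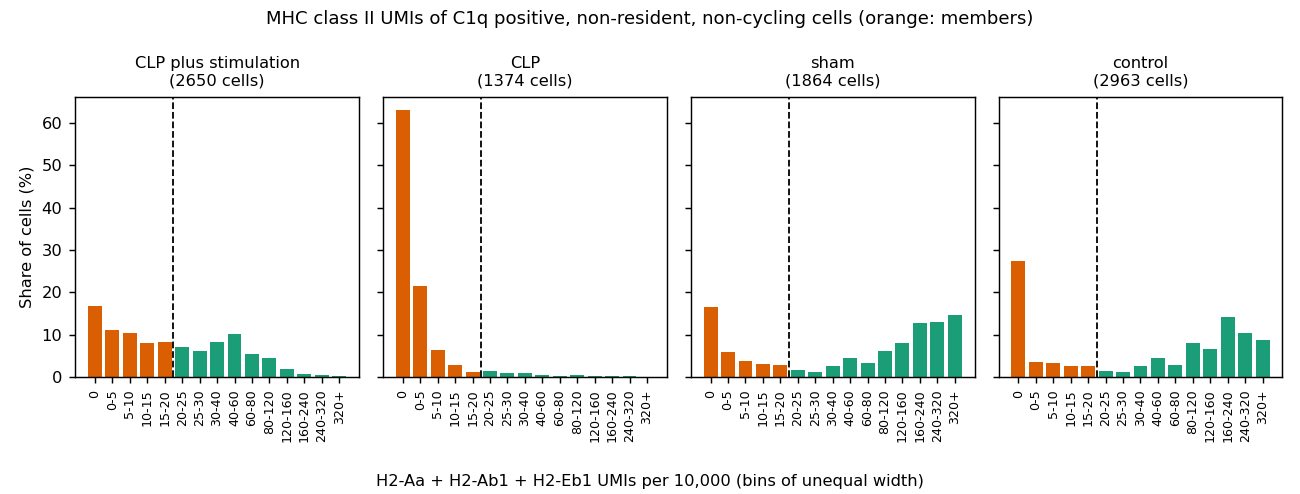
Each panel gives the share (%) of C1q positive cells outside the resident and cycling gates by their summed H2-Aa, H2-Ab1 and H2-Eb1 UMIs per 10,000, in bins of unequal width. The dashed line is the limit of 20, with members in orange. Upper bins are wider and their bars are not densities. In CLP plus stimulation 434 cells lie at 10 to 20 and 574 at 20 to 40, and no library has a gap at the limit.

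CLP with no stimulation was set against sham first. Operation and library cannot be told apart, and the gate held 75.7% of C1q positive cells in CLP and 17.7% in sham, so the members need not be the same population. Counts were summed over members, and a gene was compared where the higher library had at least 50 CPM and 20 counts. At least 2-fold higher in CLP were 163 of 2829 genes (5.76%) and at least 2-fold lower were 398 (14.1%), together 19.8%. That split depended on scaling. TMM, which assumes that most genes are level, moved every log2 ratio of CLP over sham up by 0.39 and gave 389 higher and 195 lower genes. The median of all genes was -0.14 under CPM. Ratios below are under CPM, and values between -0.39 and 0 changed sign under TMM.

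Acute phase genes were the most raised group. All 6 of 6 compared members of the 17 listed were at least 2-fold higher, with a median log2 ratio of 4.26, and the same 6 of 6 count held under TMM and in members of at least 2000 UMIs. Saa3, an inflammatory serum amyloid A, was at 55838 CPM in CLP plus stimulation, 48462 in CLP, 4.03 in sham and 0.852 in control. Its log2 ratio of CLP over sham was 13.47 (12.58 to 14.77), and its 8 counts in sham came from 1 cell. Every member of at least 2000 UMIs in both septic libraries held at least 1 Saa3 UMI. Lcn2, lipocalin 2, which binds bacterial iron carriers, was at 6791 CPM in CLP plus stimulation, 2878 in CLP, 9.06 in sham and 11.5 in control, a ratio of 8.27 (7.65 to 9.07). Hp, which encodes the haemoglobin binder haptoglobin, was at 524 CPM in CLP and 13.6 in sham, and the zinc-binding metallothioneins Mt2 and Mt1 had ratios of 3.27 and 1.18. Saa3 and Lcn2 RNA also reached cells outside the macrophages. After thinning, Saa3 was found in 94.8% and 93.1% of members and in 77.3% and 70.1% of endothelial cells of CLP plus stimulation and CLP. Its summed level in those endothelial cells was 3025 and 1184 CPM, far below the members. For Lcn2 the endothelial level was 8082 and 736 CPM, above the members in CLP plus stimulation and below them in CLP.

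The 10 highest genes also held others of mixed roles. Of 9 compared genes of the endotoxin sensing list 4 were at least 2-fold higher and 1 lower, with a median of 0.26. Fpr1 and Fpr2, receptors of bacterial formyl peptides, were at 98.9 and 85.8 CPM in CLP and at 2.01 and 4.03 in sham, with log2 ratios of 5.45 and 4.33. Marco, a scavenger receptor for bacteria, had a ratio of 5.27 (4.17 to 7.03), but the 10 richest cells held 51.0% of its counts in CLP. Cxcl13, a chemokine that attracts B cells, was at 257 CPM in CLP plus stimulation, 1079 in CLP, 22.6 in sham and 0 in control. Its ratio of CLP over sham was 5.56 (5.15 to 6.03), it was found in 203 of 1306 members of CLP, and the 45 counts in sham came from 1 cell. Ms4a8a, a membrane protein of macrophages, had 523 counts in CLP against 3 in sham, a ratio of 5.08 (3.74 to 7.58). Mmp19, a matrix protease, Ikbke, a kinase of interferon and NF-kappaB signalling, and Slc13a3, a carrier of dicarboxylates, had ratios of 4.29, 4.00 and 3.88.

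The start regions of 3 of these genes are shown because C/EBP factors, which bind variants of a common core motif, are known to drive acute phase genes. The sequences are the 250 bases before the RefSeq gene start (GRCm38.p6), for Saa3 at chr7:46715677-46715926, minus strand, for Lcn2 at chr2:32387740-32387989, minus strand and for Cxcl13 at chr5:95956689-95956938, plus strand. Capitals mark matches to TTGCNNAA on either strand.
Saa3: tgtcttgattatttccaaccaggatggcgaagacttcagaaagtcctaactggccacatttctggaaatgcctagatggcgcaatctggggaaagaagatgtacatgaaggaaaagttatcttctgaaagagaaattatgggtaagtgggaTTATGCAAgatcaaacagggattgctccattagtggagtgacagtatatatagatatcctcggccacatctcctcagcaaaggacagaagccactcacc
Lcn2: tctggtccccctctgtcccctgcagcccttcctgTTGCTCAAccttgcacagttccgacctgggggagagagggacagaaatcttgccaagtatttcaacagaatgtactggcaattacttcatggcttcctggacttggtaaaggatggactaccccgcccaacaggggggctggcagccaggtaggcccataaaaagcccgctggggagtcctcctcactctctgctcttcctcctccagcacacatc
Cxcl13: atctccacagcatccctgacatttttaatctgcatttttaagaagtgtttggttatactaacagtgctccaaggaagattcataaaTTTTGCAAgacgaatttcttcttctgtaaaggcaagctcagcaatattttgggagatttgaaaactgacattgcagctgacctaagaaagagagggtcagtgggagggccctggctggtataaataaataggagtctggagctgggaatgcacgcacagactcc
Each held 1 match, 99, 216 and 164 bases before the start. The 3 windows are the ones that matched among 9 of the highest genes with a sequence. The motif was also in 1 of 8 of the lowest genes, Bank1, and in 9.56% of the 32851 windows of the same length. A match describes letters and is not evidence of binding.

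Genes of resting and resident macrophages were lower in CLP. The rule left out cells with 2 or more of Timd4, Lyve1 and Folr2 detected, but shallow residents can pass it. Members with a single one of these genes detected were 31.9% in CLP and 49.4% in sham. The part of such cells in the values below was not tested. Of 14 compared genes of the resident programme, 11 were at least 2-fold lower and none higher, with a median of -2.18. Under TMM 10 of 13 were lower with a median of -1.80. Selenop, a selenium carrier, was at 350.2 CPM in CLP plus stimulation, 168 in CLP, 2216 in sham and 2203 in control. Igf1, the insulin-like growth factor, was at 2.98 CPM in CLP plus stimulation, 10.7 in CLP, 209 in sham and 198 in control, and Gas6, a bridge between dying cells and their receptors, at 13.6 CPM in CLP plus stimulation, 23.1 in CLP, 334 in sham and 363 in control. Sham and control were close to each other for all 3 genes and far above both septic libraries. The log2 ratios of CLP over sham were -3.72 (-3.81 to -3.64) for Selenop, -4.29 (-4.63 to -3.97) for Igf1 and -3.85 (-4.09 to -3.62) for Gas6. Gpr34, a lysophosphatidylserine receptor, was lowest at -6.13 (-7.12 to -5.38). The others among the 10 lowest were Mgl2, Ccl24, Ephx1, Hpgd, Slco2b1 and Bank1, with ratios from -6.02 to -3.72. Bank1 is also a B cell gene, and the 7 B cell markers summed to 56.6 CPM in CLP and 252 in sham. The part of B cell RNA in the Bank1 value was not tested. Apoe, the lipid carrier, was at 7009 CPM in CLP plus stimulation, 5417 in CLP, 25851 in sham and 30238 in control, and Csf1r had a ratio of -2.10.

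The M2 list followed the same direction. Of 12 compared genes 7 were at least 2-fold lower in CLP and 2 higher, with a median of -1.67. Mrc1, the mannose receptor CD206, was at 832 CPM in CLP plus stimulation, 179 in CLP, 811 in sham and 1009 in control, a ratio of -2.18 (-2.28 to -2.08). Mgl2, a galactose-binding lectin, was at 8.96 CPM in CLP and 584 in sham, and Ccl24, which attracts eosinophils, at 4.54 and 195. Clec10a, Stab1, Egr2 and Folr2 were the other lower genes, of which Folr2 was used by the rule. The higher genes were Il4ra, a receptor chain for interleukin 4, at 1.03, and Chil3 at 3.37, but the 10 richest cells held 77.3% of Chil3 counts in CLP. Cd163, the haemoglobin scavenger receptor, Tgfb1 and Klf4 had ratios of -0.70, -0.77 and -0.55. The M1 list was split. Of 12 compared genes 4 were higher and 4 lower, with a median of 0.10, and TMM gave 5 and 3. Il1b, the inflammatory interleukin 1 beta, was at 849.9 CPM in CLP plus stimulation, 428 in CLP, 66.4 in sham and 101 in control, a ratio of 2.68. Cd38, Fpr2 and Marco were also higher, and Cd86, Ccl5, Cxcl10 and Irf1 lower, the last 3 at -1.97, -1.83 and -1.81. Tnf, tumour necrosis factor, was at 222 CPM in CLP plus stimulation, 349 in CLP, 656 in sham and 399.8 in control, so the septic libraries were not above sham. Irf5, Ptgs2 and Socs3 had ratios of -0.41, 0.80 and 0.61.

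**Figure D3:**
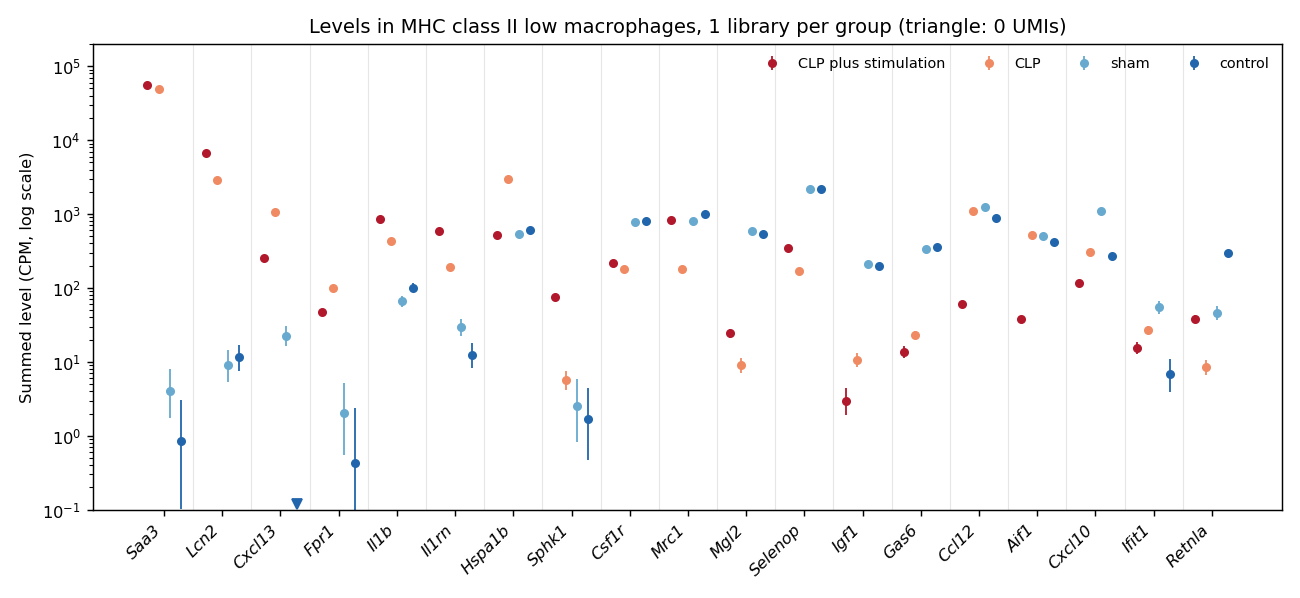
Points give the summed level (CPM, log scale) of each gene in members of CLP plus stimulation, CLP, sham and control, with 95% counting intervals as bars and a triangle for 0 UMIs. Saa3, Lcn2 and Fpr1 stand high in both septic libraries, Selenop, Igf1 and Gas6 in sham and control, and Mrc1 reaches 832 CPM in CLP plus stimulation against 179 in CLP.

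Stress and energy genes formed a further group. Of the 12 heat shock genes 10 were at least 2-fold higher in CLP and none lower, with a median of 1.27, and 9 of 12 were higher in members of at least 2000 UMIs. Hspa1b, an inducible HSP70 chaperone, was at 523 CPM in CLP plus stimulation, 2989 in CLP, 532 in sham and 608 in control. Its near-identical copy Hspa1a was at 1522 CPM in CLP plus stimulation, 5712 in CLP, 1299 in sham and 1507 in control, and reads of the pair may be split between them. CLP stood alone above the other 3 libraries for both. Of 11 compared genes of glycolysis and hypoxia 6 were higher and none lower, with a median of 1.17, among them the glycolytic enzymes Pgk1 at 1.83, Pkm at 1.68 and Ldha at 1.19. In cells thinned to 1000 UMIs before the rule, 4 of 11 were higher. Of 27 nuclear genes of oxidative phosphorylation none passed 2-fold in either direction, with a median of -0.07 that turned to 0.33 under TMM, where 2 of 26 were higher. Sod2, the mitochondrial superoxide dismutase, and Gsr, glutathione reductase, led 4 higher genes of 13 in the antioxidant list, at 2.60 and 2.94.

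Antigen presentation and degradation genes were lower. Of 12 compared genes of MHC class I presentation 9 were at least 2-fold lower and none higher, with a median of -1.24. Under TMM only 3 were, with a median of -0.85. H2-D1 and H2-K1, the classical heavy chains, were at 985 and 444 CPM in CLP and at 2411 and 1104 in sham, and reads of these close paralogs may be shared. Cd74, the class II chaperone, which is linked to the genes the rule used, was at 1748 CPM in CLP plus stimulation, 489 in CLP, 1266 in sham and 1080.2 in control. Of 23 lysosomal genes 9 were lower and 1 higher, with a median of -0.87. Hexa, a hexosaminidase, and Psap, the precursor of saposins, were lower at -2.19 and -1.61, while the protease Ctsl was higher at 1.02. Of 13 efferocytosis genes 6 were lower and none higher, among them the receptor Axl at -1.76 and the bridging protein Pros1 at -1.44. TMM left 5 of 24 lysosomal and 4 of 12 efferocytosis genes lower. The immediate early genes, which can be switched on while tissue is taken apart, had a median of -0.58 with 4 of 18 lower, led by Egr1 at -1.75.

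Stimulation in septic animals was then set against CLP alone, the comparison the series title is about. At least 2-fold higher in CLP plus stimulation were 188 of 2627 genes (7.16%) and lower were 162 (6.17%), together 13.3%, with a median of all genes of 0.06. TMM moved the ratios by -0.01. Each condition is 1 library, and stimulation and library cannot be told apart.

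Of 8 compared M2 genes 3 were at least 2-fold higher in CLP plus stimulation and none lower, with a median of 0.45, and of 13 M1 genes 4 were higher and 2 lower, with a median of 0.54. The M2 count of 3 stood without members high in S100a8 and S100a9, of 7 compared. Mrc1 was higher at 2.21 (2.13 to 2.29), and 48.3% of thinned members held it in CLP plus stimulation against 13.9% in CLP, with 1.81% and 0.512% of endothelial cells beside them. At 832 CPM it was close to the 811 CPM of sham. Cd163 was at 366 CPM in CLP plus stimulation, 118 in CLP, 192 in sham and 241 in control, a ratio of 1.63 (1.53 to 1.73), and Il4ra had a ratio of 1.10. Folr2, a rule gene, Klf4, Chil3, Tgfb1 and Stab1 were at 0.67, 0.22, 0.21, -0.29 and -0.44. Mgl2, Ccl24 and Retnla, under the 50 CPM minimum in both libraries, were at 24.5, 36.0 and 38.4 CPM in CLP plus stimulation and at 8.96, 4.54 and 8.51 in CLP, all below the 584, 195 and 46.3 CPM of sham. Of M1 genes, Ccl5, a T cell attracting chemokine, Il1a, Irf1 and Cd38 were higher, at 2.41, 1.58, 1.14 and 1.08. Cxcl10 and Marco were lower, at -1.39 and -1.62. Il1b was at 849.9 CPM in CLP plus stimulation and 428 in CLP, a ratio of 0.99, and Tnf was at -0.66. In cells thinned before the rule, 2 of 12 M1 genes were higher and 4 of 9 M2 genes.

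Of the resident programme 4 of 9 compared genes were higher, Mrc1, Cd163, Pf4 and Selenop, and Cbr2, a carbonyl reductase, was lower. Pf4, platelet factor 4, was at 3087 CPM in CLP plus stimulation, 728 in CLP, 3316 in sham and 3141 in control, so CLP stood alone below the other 3 libraries. Selenop was higher at 1.06 but stayed far below sham. Igf1, Gas6 and Csf1r, at 2.98, 13.6 and 216 CPM, stood beside CLP values of 10.7, 23.1 and 183 CPM. The low Igf1 and Gas6 of sepsis were thus also found with stimulation.

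Signalling genes differed both ways. Of 21 compared cytokine and chemokine genes 6 were higher and 4 lower. Il1rn, the antagonist of interleukin 1, was at 581 CPM in CLP plus stimulation, 195 in CLP, 29.2 in sham and 12.3 in control, a ratio of 1.57. Csf3, the granulocyte growth factor, and Cxcl3, a neutrophil attractant, had ratios of 2.34 and 2.36 (2.16 to 2.56). Ccl12, a ligand of the monocyte receptor Ccr2, was at 59.9 CPM in CLP plus stimulation, 1091 in CLP, 1253 in sham and 890.3 in control, a ratio of -4.19 (-4.32 to -4.06). CLP plus stimulation was the only library low in it. Ccl2, another Ccr2 ligand, was at 2568 CPM in CLP plus stimulation and 2339.8 in CLP. Cxcl13 was lower at -2.07, and the 10 richest cells held 89.7% of its counts in CLP plus stimulation and 45.2% in CLP. Nlrp3, the inflammasome sensor, and Casp4, the caspase that senses endotoxin inside cells, were higher at 1.47 and 1.31, and Pycard, the adaptor, was lower at -1.87. Of 15 NF-kappaB feedback genes 3 were higher and none lower, among them Il1r2 at 1.75 and Tnfaip3, the A20 inhibitor, at 1.42.

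The highest single genes were Sphk1 and Ctla2a. Sphk1, which makes sphingosine 1-phosphate, was at 76.2 CPM in CLP plus stimulation, 5.67 in CLP, 2.52 in sham and 1.70 in control, a ratio of 3.73 (3.33 to 4.19), and it was found in 346 of 1451 members against 39 of 1306. Endothelial cells of the 2 libraries held 78.0 and 5.41 CPM, which is close to the members in each. Ctla2a, a protease inhibitor with a close paralog, had a ratio of 3.15 (3.08 to 3.23) at 1773 CPM, but endothelial cells of CLP plus stimulation held 7313 CPM, and 39.5% of members and 93.2% of endothelial cells held it after thinning. The part of free endothelial RNA in either gene was not tested. Cirbp, the cold-inducible RNA-binding protein, was at 183 CPM in CLP plus stimulation, 26.7 in CLP, 70.5 in sham and 107 in control, a ratio of 2.78 (2.58 to 2.98). Zfp52, Pmvk, an enzyme of cholesterol synthesis, Wfdc18, Cd33, an inhibitory lectin, Ccl8 and Jaml, an adhesion molecule, had ratios from 2.78 to 2.38. Among the lowest were Aif1 and Lst1, neighbours in the class III region of the MHC locus. Aif1, the macrophage marker IBA1, was at 37.8 CPM in CLP plus stimulation, 526 in CLP, 497 in sham and 414 in control, a ratio of -3.80 (-3.97 to -3.63), and Lst1 was at 33.8 CPM in CLP plus stimulation, 360.4 in CLP, 449 in sham and 245 in control, a ratio of -3.41 (-3.60 to -3.24). Ccnd1, a cyclin, Ms4a4c, Ckb, creatine kinase, and Uqcc2 had ratios of -3.10, -3.04, -2.92 and -1.99.

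Heat shock genes, high in CLP over sham, were lower with stimulation. Of the 12 heat shock genes 8 were at least 2-fold lower and none higher, with a median of -1.07. Hspa1b had a ratio of -2.51 (-2.56 to -2.47) and, at 523 CPM, lay near the 532 CPM of sham. Of 13 genes of endoplasmic reticulum stress 5 were lower, among them Sdf2l1 at -2.20 (-2.36 to -2.04) and Calr, calreticulin, at -1.59, and Slc7a11, a cystine carrier, was higher at 1.49. Of 13 compared interferon-stimulated genes 6 were lower and none higher, with a median of -0.83, among them Bst2, tetherin, at -1.96 and Isg15. Of 15 genes of the glucocorticoid response 5 were higher and none lower, with a median of 0.84. Tsc22d3, the glucocorticoid-induced leucine zipper, was at 499 CPM in CLP plus stimulation, 205 in CLP, 200.3 in sham and 236 in control, and Mt1 and Mt2, which zinc and inflammation also raise, had ratios of 1.73 and 1.56. Of 8 acute phase genes 4 were higher, Saa1, Lcn2, Mt1 and Mt2, and Saa3 had a ratio of 0.20. Endothelial cells of CLP plus stimulation held more Lcn2 per UMI than its members, and the part of free endothelial RNA was not tested.

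**Figure D4:**
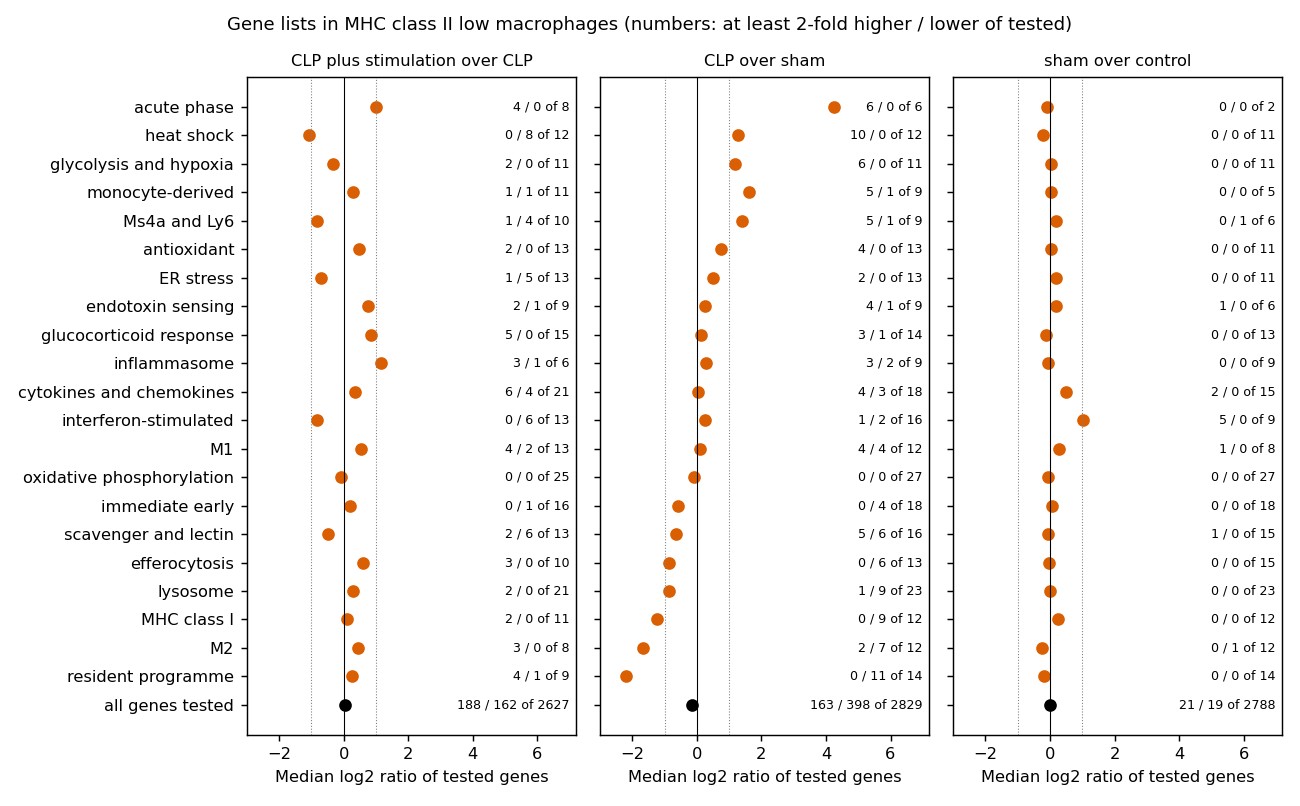
Each point is the median log2 ratio of the compared genes of a list (horizontal axis) in CLP plus stimulation over CLP, CLP over sham and sham over control, with the counts at least 2-fold higher and lower beside it. The black point is all genes. Heat shock genes lie at -1.07 with stimulation and at 1.27 in CLP over sham, and interferon-stimulated genes in sham over control at 1.03.

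Sham over control gives the difference between libraries without CLP. It was small, with 21 of 2788 genes (0.753%) at least 2-fold higher and 19 (0.681%) lower, together 1.43%, and a median of -0.01. The higher genes were led by the interferon response. Of 9 compared interferon-stimulated genes 5 were higher and none lower, with a median of 1.03, and 6 of 10 were higher in members of at least 2000 UMIs. Ifnb1, interferon beta, had 230 counts in sham and 2 in control, a ratio of 6.77 (5.22 to 10.14). Those counts came from 42 of 601 members, and the 10 richest held 74.8% of them. Ifit1, which binds viral RNA, was at 15.5 CPM in CLP plus stimulation, 26.9 in CLP, 54.9 in sham and 6.81 in control, and Isg15, a ubiquitin-like protein, at 99.1 CPM in CLP plus stimulation, 198 in CLP, 354 in sham and 84.7 in control. Their ratios of sham over control were 2.97 (2.25 to 3.87) and 2.06 (1.83 to 2.30). Cxcl10, an interferon-induced chemokine, was at 118 CPM in CLP plus stimulation, 311 in CLP, 1106 in sham and 275 in control, so sham stood alone above the other 3 libraries. Ccl4, a chemokine of activated macrophages, was at 7013 CPM in sham and 2449.6 in control. Ifih1 and Rsad2, an RNA sensor and an antiviral enzyme, had ratios of 1.70 and 1.27, and Rhoh, Bbc3 and Sag lay between 1.10 and 1.40.

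The windows before Ifit1 and Isg15 are printed because interferon-stimulated genes are known to carry a response element there. They are the 250 bases before the RefSeq gene start (GRCm38.p6), for Ifit1 at chr19:34640639-34640888, plus strand and for Isg15 at chr4:156200819-156201068, minus strand. Capitals mark matches on either strand to GAAA, any 2 bases and GAAA, which overlap each other in Isg15.
Ifit1: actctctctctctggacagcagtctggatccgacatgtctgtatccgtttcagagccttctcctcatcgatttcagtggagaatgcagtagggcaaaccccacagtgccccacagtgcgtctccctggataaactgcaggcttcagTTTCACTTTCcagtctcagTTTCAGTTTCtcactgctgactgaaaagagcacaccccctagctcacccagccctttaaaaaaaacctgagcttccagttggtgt
Isg15: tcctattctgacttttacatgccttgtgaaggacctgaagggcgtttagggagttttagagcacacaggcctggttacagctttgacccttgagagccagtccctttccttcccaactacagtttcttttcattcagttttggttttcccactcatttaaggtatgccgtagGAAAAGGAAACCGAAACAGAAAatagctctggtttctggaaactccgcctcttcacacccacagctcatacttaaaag
Ifit1 held 2 matches and Isg15 held 3. A match was found before 4 of the 9 highest genes of sham over control with a sequence, Ifit1, Isg15, Cxcl10 and Rsad2, and in 2.98% of the 32851 windows. None of the 8 lowest genes with a sequence held it.

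Among the 10 lowest genes of sham over control, Retnla, a resistin-like protein of M2 cells, was at 38.4 CPM in CLP plus stimulation, 8.51 in CLP, 46.3 in sham and 299 in control, a ratio of -2.68 (-3.02 to -2.38). Retnla was absent from 89.9% of control and 95.4% of sham members of at least 2000 UMIs. Its ratio thus does not describe a typical member of that depth. Retnla was the only M2 gene of 12 compared that passed 2-fold, and the list had a median of -0.24. Tpm2, Kitl, Id3 and Ednrb, which vessel and mural cells also express, were at least 2-fold lower, with ratios from -1.45 to -1.07. Mural markers summed to 133 CPM in sham and 405 in control, and 2 of 3 compared were lower with a median of -1.96. Endothelial markers summed to 631 CPM in sham and 1380.4 in control beside them, and to 196 and 591 CPM in members of at least 2000 UMIs. The part of vessel RNA in these values was not tested. Ano6 was lower at -1.05, and Hbegf, a growth factor, Jup, Cmah and Vps37b, at -0.91 to -0.83, did not reach 2-fold.

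Members differed among themselves, and the sums above do not describe a typical cell for every gene. Over members of at least 2000 UMIs, 996 in CLP plus stimulation, 1100 in CLP, 302 in sham and 424 in control, Saa3 had a median of 445 UMIs per 10,000 in CLP plus stimulation and 290.2 in CLP. The 10th and 90th percentiles were 11.1 and 1243 in CLP plus stimulation and 10.6 and 1158 in CLP. The level thus varied widely between cells, with no septic member of that depth at 0. Within CLP plus stimulation and CLP, Spearman's rho over cells between Saa3 and Lcn2 per 10,000 UMIs was 0.30 and 0.35, and between Saa3 and total UMIs 0.18 and 0.18. Lcn2 was absent from 15.1% of these cells in CLP plus stimulation and 25.8% in CLP. Hspa1b had a median of 1.33 UMIs per 10,000 in CLP plus stimulation, 18.8 in CLP, 0.833 in sham and 1.70 in control. Mrc1 was found in most cells outside CLP, being absent from 9.64%, 49.0%, 10.3% and 17.2% in that order. Ccl12 was absent from 87.7%, 27.4%, 30.1% and 45.3%.

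**Figure D5:**
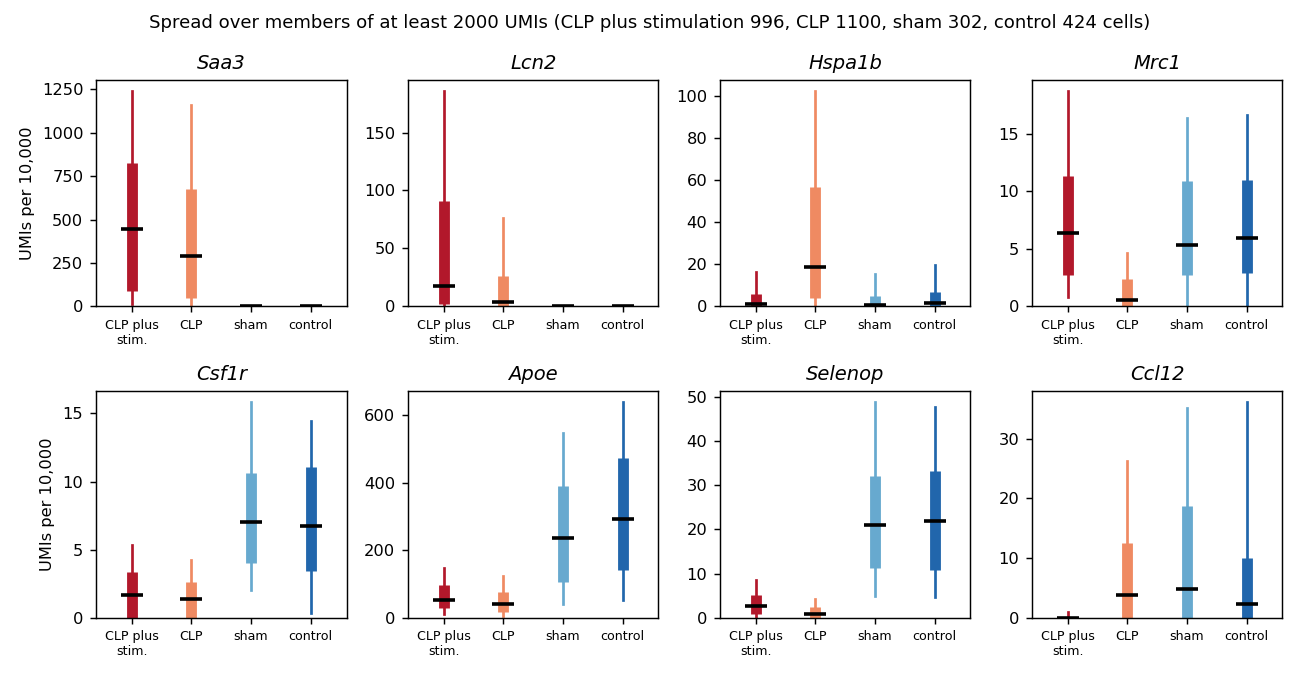
For 8 genes, the black mark is the median over members of at least 2000 UMIs, the thick bar the 25th to 75th percentile and the thin line the 10th to 90th percentile (UMIs per 10,000), for CLP plus stimulation, CLP, sham and control. Mrc1 has a median of 6.38 in CLP plus stimulation and 0.572 in CLP, while Csf1r, Apoe and Selenop stay low in both septic libraries.

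Other C1q positive cells of the same library showed how far these values belong to the members. Leaving out the rule's genes, 12 genes were at least 2-fold higher and 4 lower in members than in MHC class II high cells of CLP plus stimulation (0.659% of 2429). In CLP they were 25 and 82 (4.33% of 2470), in sham 62 and 14 (2.89% of 2630) and in control 62 and 20 (3.09% of 2657). Members and MHC class II high cells thus differed in the fewest genes in CLP plus stimulation. Against resident cells 15 genes were higher and 11 lower in CLP plus stimulation (1.07% of 2440), 13 and 19 in CLP (1.36% of 2361), 43 and 19 in sham (2.29% of 2711) and 43 and 15 in control (2.16% of 2691). The lower genes included partners of the rule's genes such as Cd74 and H2-DMa. Ccr2, the monocyte chemokine receptor, was lower at -3.64, -3.71 and -2.83 against MHC class II high cells of CLP, sham and control. B cell genes were also lower, Cd79a at -3.30, -3.18 and -2.44 and Igkc at -3.60, -2.90 and -3.20 in that order. The 7 B cell markers summed to 70.3, 56.6, 252 and 331 CPM in members of CLP plus stimulation, CLP, sham and control. In MHC class II high cells they summed to 83.1, 499, 654 and 967 CPM. The part of B cell RNA in these differences was not tested. Spp1, osteopontin, was higher in members than in MHC class II high cells of sham and control, at 2.33 and 1.94, and than in residents, at 1.92 and 4.51. C4b, a complement protein, and Fcna, a ficolin, were higher than in MHC class II high cells, at 1.66 and 2.29 in sham and 2.86 and 2.38 in control. Of 14 compared resident programme genes 5 were higher in sham and 7 in control than in MHC class II high cells. Against resident cells no gene of this list was higher in any library. Lower were 4 of 12 in CLP plus stimulation, 6 of 11 in CLP, 4 of 16 in sham and 2 of 16 in control. The medians were -0.61, -1.16, -0.55 and -0.44 in that order. Genes of heart muscle and vessels were higher in members than in MHC class II high cells, among them Ttn and Pln in sham and Ly6c1, Gpihbp1 and Rgs5 in control. In CLP, Retnla, Arg1 and Fn1, an M2 protein, an arginine-degrading enzyme and fibronectin, were lower in members at -6.66, -4.52 and -3.89, over only 68 MHC class II high cells.

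Some lists had medians of the same sign in those cells and others did not, and no difference between populations was tested. In CLP over sham the growth and repair factors had a median of -0.77 in members, 1.41 in MHC class II high cells and -0.72 in residents, and endotoxin sensing 0.26, 2.71 and 0.30. Saa3 in MHC class II high cells was at 41408, 20368, 0 and 1.52 CPM in CLP plus stimulation, CLP, sham and control, and in resident cells at 64604, 70478, 3.13 and 0.121 CPM. Residents of CLP thus held more Saa3 per UMI than members. In CLP over sham the heat shock list had a median of 1.27 in members, 0.95 in MHC class II high cells and 0.99 in residents, and the M2 list -1.67, -0.97 and -1.49. In CLP plus stimulation over CLP the M2 medians were 0.45, 0.22 and 0.88, and the heat shock medians -1.07, -0.82 and -1.01. In CLP over sham 2483 genes were compared in both members and MHC class II high cells. Of these, 456 were called in members and 450 in MHC class II high cells, 316 of them in the same direction. For CLP plus stimulation over CLP 2466 genes were compared in both, with 312 called in members, 318 in MHC class II high cells and 190 in the same direction. Mrc1 was at 743, 213, 471 and 488 CPM in MHC class II high cells and 1054, 329.6, 903 and 879 CPM in residents of CLP plus stimulation, CLP, sham and control.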

How the data were processed

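Hearts of mice were profiled as 4 libraries, 1 per group, taken from the treatment label or, for CLP plus stimulation, the title. Each deposited matrix gives unnormalized UMI counts by gene and cell barcode. Cell Ranger 5.0.0 produced it, per the file headers. STAR and mm10 are named in the submitters' processing notes, and the Chromium 3' v3 kit in the labels' protocols. Barcodes with at least 500 UMIs, at least 200 genes and at most 20% mitochondrial UMIs were kept. No doublets were removed beyond the membership rule. Leaving out the highest Scrublet scores (scanpy 1.11.5) was an alternative.

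Counts were summed over members in each library and scaled to CPM, and log2 ratios used a prior count of 0.5. Genes were compared where the higher library had at least 50 CPM and 20 counts, and called at 2-fold, which stands in for a test. Gene ratios carry exact conditional binomial intervals, ratios of shares a normal approximation on the log scale, shares exact Clopper-Pearson intervals and levels exact Poisson intervals. Unique molecular identifiers were counted, and all intervals cover counting error only. TMM factors came from edgeR 4.0.16. Other tools were Python 3.11.15, numpy 2.4.6, scipy 1.17.1, pandas 2.3.3 and R 4.3.3. The calculation was tested on simulated data.

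Named genes were the 10 highest and 10 lowest ratios of each comparison, all compared M1 and M2 genes and the extremes of other lists. Mitochondrial, ribosomal, haemoglobin, immunoglobulin and sex-linked genes, unnamed models, genes of the rule, markers of other cells and those more than 10-fold higher in another cell type were passed over. Other genes printed are examples from a list or were chosen after their values were seen. The members and lists were chosen with earlier results of these data known. Alternatives changed the class II, C1q and resident limits, depth, doublets, scaling, prior, weighting and filter. Gene positions are from GENCODE vM21, and start sequences from RefSeq, both of GRCm38.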

Additional observations from a re-analysis of the deposited data

Results flagged for a closer look

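In 4 genes the members and the MHC class II high cells differed by at least 2-fold in opposite directions under the same comparison. They were 1 of 2483 genes compared in both populations in CLP over sham and 3 of 2466 in CLP plus stimulation over CLP. Between members and resident cells no gene did so. These differences between populations were not tested, and each rests on 1 library per group. Lyz1, a lysozyme with a near-identical paralog that makes its counts uncertain, was lower in members in CLP over sham at -2.96, with 8.28 CPM in CLP and 64.4 in sham. In MHC class II high cells it was at 240.3 CPM in CLP and 28.9 in sham, a ratio of 3.05.

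The other 3 belong to CLP plus stimulation over CLP, where MHC class II high cells of CLP numbered 68. Camp and Ngp, neutrophil granule genes, were higher in members at 1.71 and 1.94 and lower in MHC class II high cells at -2.88 and -1.60. The 10 richest members held 78.9% of Camp and 76.2% of Ngp counts in CLP plus stimulation, and without members high in S100a8 and S100a9 the members' ratios were 2.25 and 2.11. Acod1, which makes itaconate, was higher in members at 1.22, with 55.2 CPM in CLP plus stimulation and 23.7 in CLP, and lower in MHC class II high cells at -1.29, on 327 and 64 counts.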

How the results depend on the processing

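No paired analysis was possible because each group is 1 library and its number only names it. Of 87 repeats of the shares and gene counts, 61 stayed within the counting interval or within 1.5 times, and 26 moved, and the cause was not tested where none is named. The share ratio of CLP plus stimulation over CLP, -0.71, was -1.15 with a class II limit of 10 per 10,000, -0.79 with a C1q limit of 40, -0.79 with no resident gene detected, -0.84 on thinned cells and -0.81 in cells of at least 2000 UMIs. That of CLP over sham, 2.10, was 2.33, 2.24, 2.53, 1.63 and 2.78 under the same settings. That of sham over control, -0.49, was -0.0074 (-0.11 to 0.09) on thinned cells and -0.29 in cells of at least 2000 UMIs. The filter of 20 counts alone compares more low genes and gave 790 higher and 957 lower genes in CLP plus stimulation over CLP, 561 and 1380 in CLP over sham and 104 and 224 in sham over control. TMM gave 389 higher and 195 lower genes in CLP over sham, against 163 and 398, so that 66.6% of calls were higher, against 29.1%, and it shared 358 of the 561 calls in direction. Of the 40 calls of sham over control, 19 were kept in direction on thinned cells, 24 with equal weight per cell and 26 with a C1q limit of 40. Equal weight per cell gave 623 lower genes in CLP over sham and 40 higher genes in sham over control, against 21. With no resident gene detected, sham over control had 38 higher and 54 lower genes, against 21 and 19, and its lower genes were 8 with a C1q limit of 40 and 12 on thinned cells. Of 1122 list medians 221 left the interval of the main median and 901 did not, and of 4587 values of single genes 199 gained or lost a call. Leaving out doublet scores, members high in S100a8 and S100a9, or adding 5 CPM moved none of the shares and counts by that measure. Alternatives with 2000 UMIs and without S100a8 and S100a9 were chosen after seeing the data. A library could not be left out, as none repeats another. A count of 3 in all members is 0.358 CPM in CLP plus stimulation, 0.340 in CLP, 1.51 in sham and 1.28 in control, so low genes are least certain in sham and control.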

Other observations

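Genes of several smaller families differed between libraries in ways not described above. Of all compared genes 5.76% were higher and 14.1% lower in CLP over sham, and 7.16% and 6.17% with stimulation. In CLP over sham 5 of 9 compared Ms4a and Ly6 genes were at least 2-fold higher and 1 lower, with a median of 1.39, and with stimulation 4 of 10 were lower and 1 higher. Ms4a6d, a tetraspanning membrane protein of myeloid cells, was at 414 CPM in CLP plus stimulation, 627 in CLP, 136 in sham and 119.6 in control, whereas Ms4a7 was at 94.6 CPM in CLP plus stimulation, 184 in CLP, 461 in sham and 334 in control. Ms4a4c was at 6.68 CPM in CLP plus stimulation and 55.5 in CLP, while Ms4a4a was at 93.8 and 34.5. Members of this family thus stood on opposite sides. Of the Fc gamma receptors, which bind antibody, Fcgr4 was at 254 CPM in CLP plus stimulation, 279 in CLP, 38.2 in sham and 19.6 in control, and the inhibitory Fcgr2b at 788 CPM in CLP plus stimulation, 367 in CLP, 237 in sham and 211 in control. Itgam, the CD11b integrin chain, was at 832 CPM in CLP plus stimulation, 452 in CLP, 112 in sham and 91.5 in control.

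Of 11 compared iron and haem genes 2 were higher and 1 lower in CLP over sham, and 3 and 1 with stimulation. Beside them, 5.76% of all compared genes were higher and 14.1% lower in CLP over sham, and 7.16% and 6.17% with stimulation. The single genes below are thus given without a claim about the family. Trf, transferrin, was at 232 CPM in CLP plus stimulation, 111 in CLP, 755 in sham and 718 in control, and Fth1, the ferritin heavy chain, at 28019 CPM in CLP plus stimulation, 18175 in CLP, 9958 in sham and 10104 in control. Blvrb, a biliverdin reductase, was at 117 CPM in CLP plus stimulation, 347 in CLP, 497 in sham and 542 in control. Ctsl was at 2247 CPM in CLP plus stimulation, 855 in CLP, 421 in sham and 534 in control, the highest in CLP plus stimulation. Among genes of matrix turnover, Mmp14 was at 131 CPM in CLP plus stimulation, 60.1 in CLP, 7.05 in sham and 5.54 in control, and Timp1, an inhibitor of matrix proteases, at 62.7 CPM in CLP plus stimulation, 12.9 in CLP, 1.01 in sham and 1.70 in control. Cd47, the signal that protects cells from being eaten, was at 736 CPM in CLP plus stimulation, 211 in CLP, 199.8 in sham and 179 in control, so CLP plus stimulation stood alone. Hif1a was at 237 CPM in CLP plus stimulation and 95.3 in CLP, and Stat3 at 302 and 138. These genes were chosen after their values were seen, and none of the differences was tested.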
